A study of Mus musculus with 8 samples.

Results

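The oxygen sensors and HIF subunits are the 8 mouse genes that set and carry the transcriptional response to low oxygen: Egln1, Egln2, Egln3, Vhl, Hif1a, Epas1, Hif1an and Arnt. They were taken by symbol from a table of 12339 genes, with earlier results of these data known, and all 8 had 1 row each. The values are FPKM, sequenced fragments per unit of transcript length and of library size, a level that can be set side by side between genes.

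The libraries were made from mouse retina by RiboTag, a method that pulls down tagged ribosomes, with their RNA, from cells that express Cre. The cells labelled here are Müller cells, the radial glia that span the retina. All 8 libraries came from postnatal day 14 of oxygen-induced retinopathy (OIR), a model in which pups spend a period in high oxygen and the inner retina is short of oxygen after their return to room air. The 4 wild-type (WT) libraries and the 4 with a Müller-specific conditional knockout of Nrf2 (cKO) are numbered 1, 3, 4 and 5 in both groups. The Cre driver, the exon removed, sex, litter and the number of animals in a library are not given in the sources used here, so p-values measure the spread between these libraries, which may be technical.

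When oxygen is present, the prolyl hydroxylases encoded by Egln1, Egln2 and Egln3 (PHD2, PHD1 and PHD3) hydroxylate the alpha subunits of hypoxia-inducible factor (HIF), and the von Hippel-Lindau protein made by Vhl binds the modified subunits and sends them to the proteasome. Hif1an encodes FIH, which hydroxylates an asparagine of the same subunits and blocks their binding of coactivators. In low oxygen, HIF-1α (Hif1a) and HIF-2α (Epas1) persist, pair with ARNT (Arnt) and switch on genes of glycolysis and vessel growth, Egln1 and Egln3 among them. Because the hydroxylases act on protein, the level of these RNAs does not report how much HIF protein or hydroxylase activity a cell holds.

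Egln1 was 1.34-fold higher in cKO, with each cKO library above each WT library, and passed the test only when libraries of equal number were paired. Egln3 was higher in cKO in all 4 pairs of equal library number, by 1.59-fold on average, but did not pass the test. The other 6 members differed by between −0.15 and 0.16 on the log2 scale, and 0 of them passed with or without the pairing. These and all later differences are cKO minus WT in log2(FPKM + 0.5), tested with limma, and adjusted p-values are Benjamini-Hochberg over all 12339 genes.

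The sequence before the start of the 2 members with the largest positive difference is shown because both are textbook HIF targets. It is the 250 bases before the RefSeq start on GRCm38.p6, 5′ to 3′ on the gene's own strand, at chr8:124949255-124949504 for Egln1 and chr12:54203875-54204124 for Egln3, both on the minus strand. Capitals mark the core of the hypoxia response element, the letters ACGTG or GCGTG on either strand.
Egln1: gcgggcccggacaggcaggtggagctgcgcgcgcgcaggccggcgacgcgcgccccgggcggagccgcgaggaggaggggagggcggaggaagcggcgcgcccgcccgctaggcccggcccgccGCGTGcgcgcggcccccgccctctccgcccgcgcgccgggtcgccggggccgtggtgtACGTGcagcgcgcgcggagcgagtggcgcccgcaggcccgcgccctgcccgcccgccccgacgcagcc
Egln3: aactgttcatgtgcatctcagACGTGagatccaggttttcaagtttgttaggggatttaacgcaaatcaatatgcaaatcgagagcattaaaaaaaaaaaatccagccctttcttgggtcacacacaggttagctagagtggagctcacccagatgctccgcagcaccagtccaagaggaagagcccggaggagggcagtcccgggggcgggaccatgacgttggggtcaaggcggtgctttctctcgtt
Counted back from the start, in Egln1 the core GCGTG began at base −126 and ACGTG at base −68, in a window with 86.0% G and C. In Egln3 the 1 match, ACGTG, began at base −229, in a window with 50.8% G and C. Of the 7 members with a window in the RefSeq table, 5 (Egln1, Egln2, Egln3, Hif1a and Arnt) held at least 1 core, as did 38.6% of all 32851 windows of that length. Members were counted by gene over all their windows, and the share of all windows by window. Egln2 had 2 windows, each with a core. ACGTG alone, which can overlap the E-box CACGTG, was in 4 of the 7 members and 16.6% of all windows. The core of the antioxidant response element bound by Nrf2, searched as TGACNNNGC on both strands, was in 1 of the 7 members, Arnt, and in 10.2% of all windows. A match describes letters in the window and shows no binding.

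The table's FPKM summed to between 410581 and 448130 per library, and the fragments behind them are not given, so no counting interval was computed. Of 20 Müller cell markers 19 had a row, with a summed level of 11742 to 19881 FPKM in WT and 12860 to 17637 in cKO. All 13 rod markers had a row too, at 4341 to 6946 in WT and 4710 to 7550 in cKO, so the libraries also held RNA of other retinal cells. In such bulk samples fewer cells of a type and less RNA per cell cannot be told apart. Nfe2l2, the gene of Nrf2, checks the labels: its level was 19.2 ± 2.66 FPKM in the WT libraries and 13.6 ± 2.66 in the cKO libraries (SD, n = 4), and the groups did not overlap. An exact permutation test, two-sided, gave p = 0.0286, which no split into 4 and 4 can undercut. Its limma adjusted p was 0.453, and 0.0219 with the replicate number as a block. That blocked call was lost without pair 1, 4 or 5 (limma adjusted p = 0.0785, 0.0846 and 0.0634) and held without pair 3 (0.0182). Keap1, which marks Nrf2 protein for destruction, had a level of 24.1 ± 3.38 FPKM in WT and 24.7 ± 1.93 FPKM in cKO.

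The numbers of the libraries paired them by the check described with the processing, so each test was also fitted with the library number as a block. Without the block, 0 of 12339 genes (0%) and 0 of the 8 members passed an adjusted p of 0.05 in limma. Before adjustment, 1310 genes had a p under 0.05. So did 2 members, Egln1 and Egln3, both higher in cKO, as were 3.95% of all genes by this rule. With the block, 1305 genes (10.6%) passed, of which 369 (2.99%) were higher in cKO. Of the 8 members 1 passed with the block, Egln1, which is 12.5% and close to the share among all genes. Leaving out 1 pair cut the 1305 genes to 402, 606, 524 or 821 when that pair was 1, 3, 4 or 5. All cKO values lay above all WT values in 1 member, Egln1, and in 2.06% of genes. All 4 pairs were higher in cKO in 2 members, Egln1 and Egln3, and in 16.7% of genes. The median difference was −0.02 over the 8 members and 0.0036 over all genes. With quantile scaling it was 0.0025 over the 8 members and 0.027 over all genes.

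**Figure D1:**
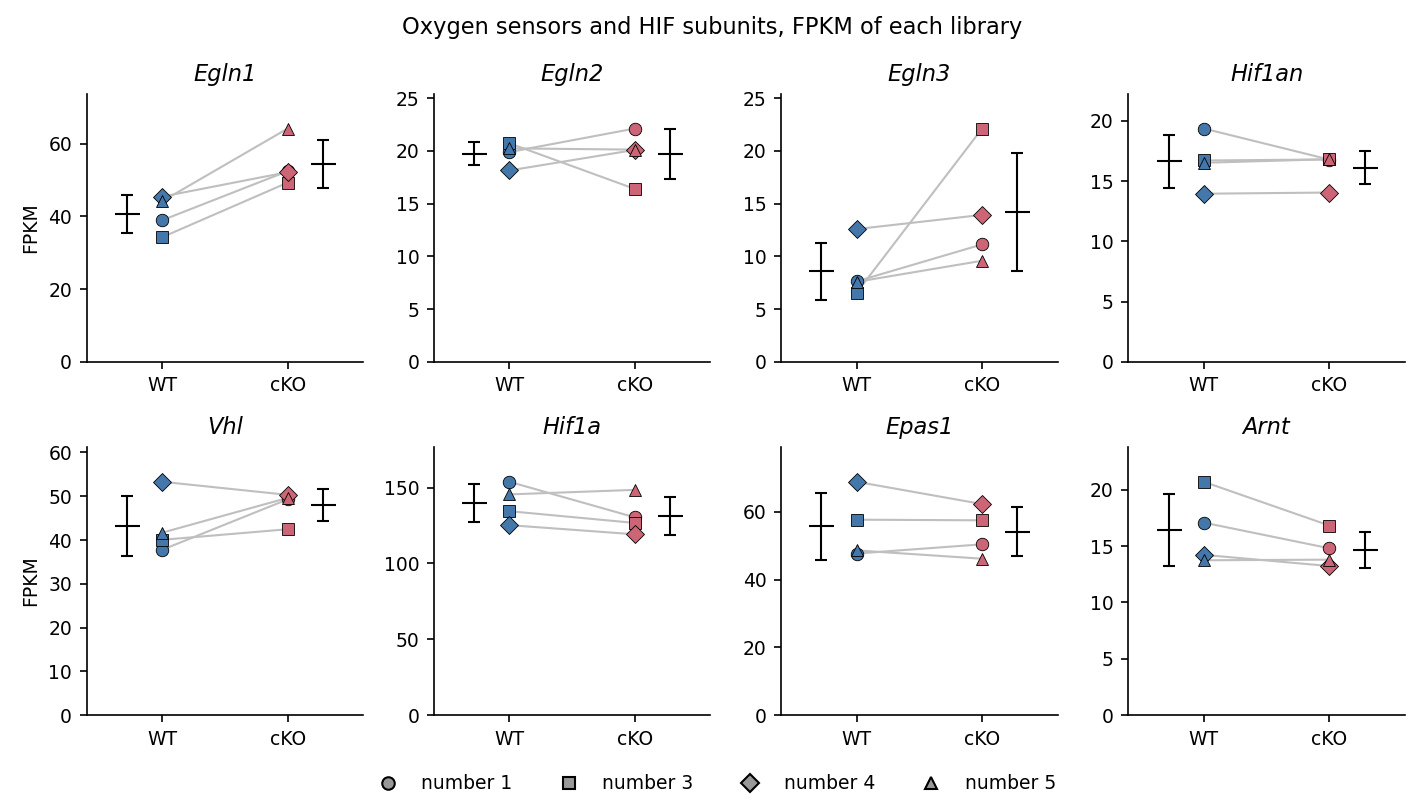
FPKM of the 8 members (vertical axes from 0) in the 4 WT and 4 cKO libraries; grey lines join libraries of equal number, and the bars beside the points are the mean and SD of each group. Only in the Egln1 panel do all 4 cKO points lie above all 4 WT points.

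Hif1a was the most abundant of the 8 RNAs, at a mean of 136 FPKM over the 8 libraries, above 96.0% of the genes in the table. Epas1 (54.9), Egln1 (47.6) and Vhl (45.6) followed, then Egln2 (19.7), Hif1an (16.4), Arnt (15.6) and Egln3 (11.4). The level of Hif1a was above that of Epas1 in all 8 libraries, 2.47-fold on the means, with no overlap. Vhl was likewise above Egln2 in all 8 libraries, 2.31-fold on the means. The ranges of Epas1, Egln1 and Vhl overlapped, as did those of neighbours in the order from Egln2 to Egln3, so these were not separated beyond their spread. Egln3 varied most between libraries, with a coefficient of variation of 44.3% over the 8, and Egln2 least, at 8.78%.

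Egln1 encodes PHD2, the main oxygen sensor for HIF-1α (ENSMUSG00000031987; GRCm38 chromosome 8, 124908587 to 124949324, minus strand). It was at 38.9, 34.3, 45.4 and 44.2 FPKM in WT 1, 3, 4 and 5, and at 52.5, 49.3, 52.2 and 64.2 in cKO 1, 3, 4 and 5. The lowest cKO library stood above the highest WT library, and cKO 5 was the highest of all. On average WT stood at 40.7 ± 5.13 and cKO at 54.5 ± 6.59 (SD, n = 4). The difference was 0.42 (SE 0.12, 95% interval 0.15 to 0.68; limma adjusted p = 0.453). With the block the SE was 0.07, the interval 0.25 to 0.59 and the limma adjusted p 0.0141. Within pairs 1, 3, 4 and 5 it was higher by 0.43, 0.52, 0.20 and 0.53, and pair 4 gave the smallest rise. With the block and without pair 1, 3, 4 or 5 the difference was 0.42, 0.39, 0.49 and 0.38, with limma adjusted p-values of 0.0605, 0.0571, 0.0226 and 0.0495. Egln1 thus missed the threshold without pair 1 or without pair 3.

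Markers of some other retinal cells moved with Egln1. The 8 of 12 amacrine and horizontal cell markers with a row summed to 223 to 254 FPKM in WT and 173 to 215 in cKO, with no overlap. The 3 of 11 pericyte markers with a row (Pdgfrb, Rgs5 and Tagln) summed to 33.3 to 46.8 in WT and 52.7 to 63.1 in cKO, again with no overlap. The 6 of 9 ganglion cell markers with a row summed to 64.2 to 85.8 in WT and 46.4 to 66.1 in cKO. The 12 bipolar cell markers summed to 2141 to 2640 in WT and 2621 to 3346 in cKO. With the block, 4 of the amacrine and horizontal markers and 3 of the ganglion cell markers were called lower, and 0 higher. The block fit called 1 of the 3 pericyte markers and 7 of the bipolar markers higher, and 0 lower, where 10.6% of all genes passed. Over the 8 libraries, the log2 level of Egln1 had a Pearson r of −0.97 with the amacrine and horizontal sum, 0.86 with the bipolar sum, 0.73 with the pericyte sum and −0.71 with the ganglion cell sum. It was 0.75 with Hbb-bs, the 1 red blood cell marker of 5 with a row, at 1.148 to 3.59 FPKM in WT and 2.34 to 2.75 in cKO. With the lists not named so far, the r of Egln1 lay between −0.51 (endothelial) and 0.60 (astrocyte). Among them it was 0.31 with the rod sum, −0.25 with the cone sum and 0.04 with the Müller cell sum. Of the 8 cone markers with a row the block fit called 1 higher and 4 lower, and of the 19 Müller cell markers 0 and 2. The r values named first were picked after their values were seen, from 96 computed between members and marker lists. Those given later for Egln3, Hif1an and Epas1 were picked from the same 96. Others of the 96 were of like size, such as 0.91 for Vhl with Hbb-bs. All 96 share the scaling of the libraries and describe these libraries. Group means were not removed, so a sum that differs between the groups, as Egln1 does, can have a large r from that alone. The part of other cells in the Egln1 difference, and in those of the pathway genes described later, was not tested. No measured marker of any list was at 0.

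Egln3 encodes PHD3, the hydroxylase most strongly induced by low oxygen in many cells (ENSMUSG00000035105; chromosome 12, 54178981 to 54203860, minus strand). It was at 7.63, 6.55, 12.6 and 7.59 FPKM in WT 1, 3, 4 and 5, and at 11.1, 22.1, 13.9 and 9.59 in cKO 1, 3, 4 and 5. WT 4 stood above the other WT libraries and inside the cKO range, and cKO 3 stood above all others. The means were 8.59 ± 2.71 and 14.2 ± 5.58 (SD, n = 4 each). The difference of 0.67 had an SE of 0.26 and a 95% interval of 0.08 to 1.25 (limma adjusted p = 0.461, and 0.103 with the block). Within pairs 1, 3, 4 and 5 it was 0.52, 1.68, 0.14 and 0.32, so pair 3 gave most of it. With the block and without pair 3 the difference was 0.33 (limma adjusted p = 0.145), and without cKO 3 alone it was 0.43 (limma adjusted p = 0.318). Without WT 4 it was 0.85 (limma adjusted p = 0.304). The 7 of 8 astrocyte markers with a row, Gfap among them, summed to 170 to 340 FPKM in WT and 296 to 448 in cKO, and their sum had an r of 0.89 with Egln3 over the 8 libraries. With the block 2 of the 7 astrocyte markers were called higher and 0 lower. Which cells gave these RNAs, and their part in the Egln3 values, was not tested.

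Egln2 encodes PHD1, the third prolyl hydroxylase (ENSMUSG00000058709; chromosome 7, 27158658 to 27166802, minus strand). It was at 19.9, 20.7, 18.1 and 20.2 FPKM in WT 1, 3, 4 and 5, and at 22.1, 16.4, 20.1 and 20.1 in cKO 1, 3, 4 and 5. The WT values lay inside the range of the cKO values, whose highest was cKO 1 and lowest cKO 3. The difference was −0.01 (95% interval −0.25 to 0.23; limma adjusted p = 0.973, and 0.953 with the block). Its sign turned with quantile scaling (0.011) and with library weights (0.06). The interval holds changes of up to 1.17-fold higher or to 0.84 of the WT level.

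**Figure D2:**
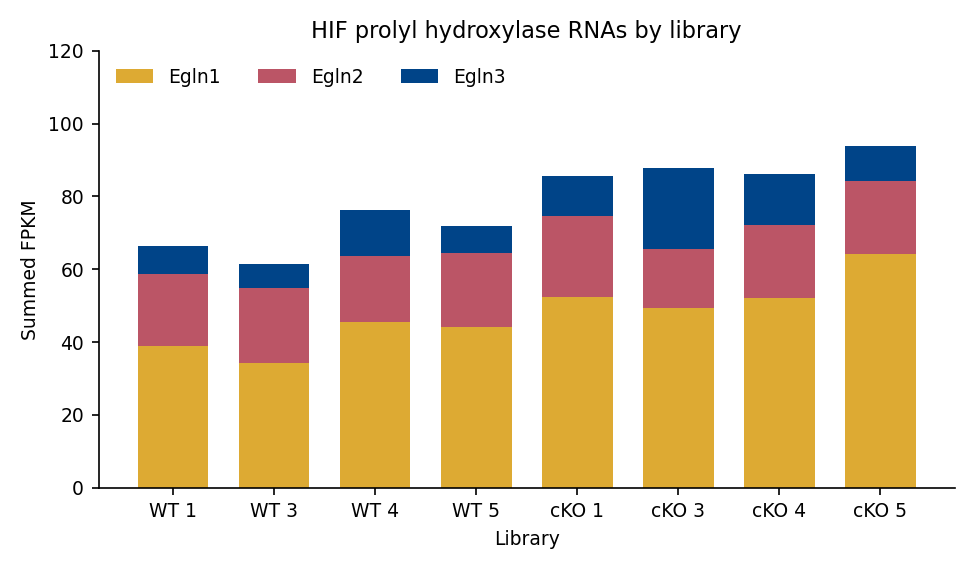
Summed FPKM of Egln1, Egln2 and Egln3 (vertical axis) in each of the 8 libraries, stacked by gene. The 4 cKO bars end between 85.7 and 93.9, above the 4 WT bars, which end between 61.5 and 76.2.

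Added up, the RNAs of the 3 prolyl hydroxylases came to 69.04 ± 6.39 FPKM for WT and 88.4 ± 3.76 FPKM for cKO (SD, n = 4), with no overlap between the groups. Egln1 held 58.8% ± 2.38 of the sum in WT and 61.6% ± 5.06 in cKO, the largest share in each library. The share of Egln2 was 28.9% ± 4.10 in WT and 22.3% ± 3.01 in cKO, and that of Egln3 was 12.3% ± 2.85 and 16.1% ± 6.51. The ranges of all 3 shares overlapped between the groups. In cKO 3 the share of Egln3 was 25.2% and above that of Egln2 (18.7%), while in the other 7 libraries Egln2 was above Egln3. These sums and shares were given no test.

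Hif1an encodes FIH, the asparaginyl hydroxylase (ENSMUSG00000036450; chromosome 19, 44562850 to 44576274, plus strand). It was at 19.4, 16.7, 13.95 and 16.5 FPKM in WT 1, 3, 4 and 5, and at 16.8, 16.8, 14.05 and 16.8 in cKO 1, 3, 4 and 5. Both libraries numbered 4 were the lowest of their group, and the other cKO values were nearly equal. The difference was −0.04 (95% interval −0.30 to 0.22; limma adjusted p = 0.906, and 0.762 with the block). Its sign turned without WT 1 (0.034) and without cKO 4 (0.023). Hif1an ran against the summed Müller cell markers over the 8 libraries, with an r of −0.94. That sum was highest in the same libraries, WT 4 (19881 FPKM) and cKO 4 (17637). The summed prolyl hydroxylases were 4.23 ± 0.906 times the level of Hif1an in WT and 5.51 ± 0.461 times in cKO, and the ranges overlapped.

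Vhl encodes the recognition subunit of the ubiquitin ligase (ENSMUSG00000033933; chromosome 6, 113623959 to 113631633, plus strand). It was at 37.8, 40.04, 53.3 and 41.7 FPKM in WT 1, 3, 4 and 5, and at 49.3, 42.5, 50.3 and 49.6 in cKO 1, 3, 4 and 5. WT 4 was the highest of all 8 libraries, the other 3 WT values lay below every cKO value, and cKO 3 stood below the other cKO libraries. The difference was 0.16 (SE 0.12, 95% interval −0.11 to 0.42; limma adjusted p = 0.608, and 0.261 with the block). It was 0.26 without WT 4 (limma adjusted p = 0.309), 0.10 without WT 1 and 0.08 with the block without pair 1. Pairs 1, 3 and 5 were higher in cKO by 0.38, 0.08 and 0.25, and pair 4 was at −0.08.

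**Figure D3:**
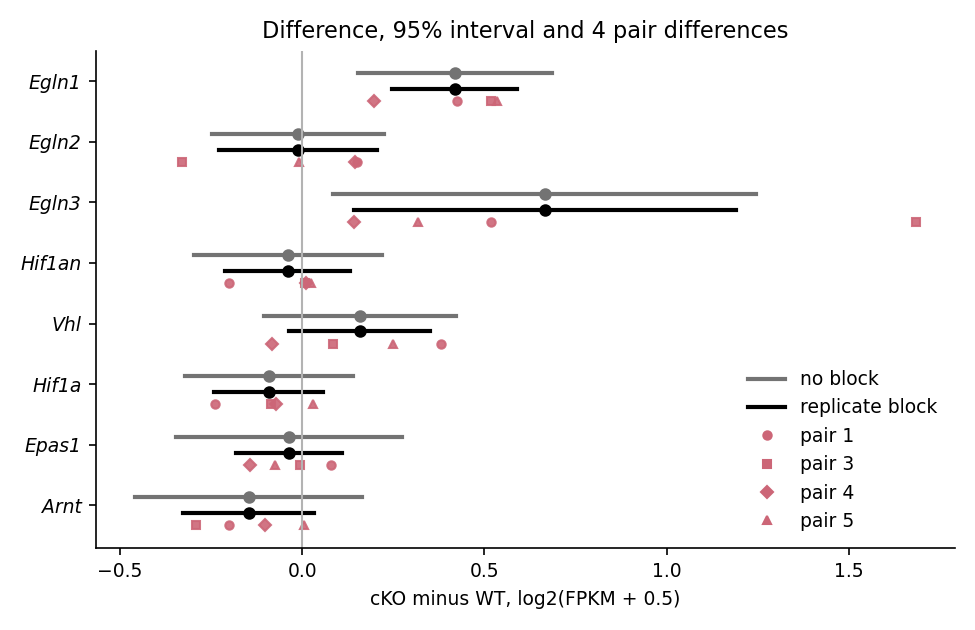
Difference of each member, cKO minus WT in log2(FPKM + 0.5) (horizontal axis), with the 95% interval of the limma fit without the block (grey) and with it (black) and the 4 pair differences (red symbols). The intervals of Egln1 and Egln3 lie above 0 in both fits, before any adjustment for the 12339 genes, and those of the other 6 members include 0.

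The α subunits and their partner showed no difference beyond the spread of the libraries. Hif1a encodes HIF-1α, the subunit that drives the glycolytic genes (ENSMUSG00000021109; chromosome 12, 73901375 to 73947530, plus strand). It was at 154, 134, 125 and 146 FPKM in WT 1, 3, 4 and 5, and at 130, 127, 119 and 149 in cKO 1, 3, 4 and 5. The groups overlapped almost wholly, and in both groups the library numbered 4 was the lowest. The difference was −0.09 (SE 0.10, 95% interval −0.32 to 0.14; limma adjusted p = 0.734, and 0.395 with the block). The interval runs from 0.80 to 1.10 of the WT level. The difference was −0.04 without WT 1, −0.05 without cKO 4, −0.14 without WT 4, −0.15 without cKO 5 and −0.16 with quantile scaling, and −0.04 with the block without pair 1. Gm15283, an antisense transcript that spans the whole of Hif1a in the annotation, was at 2.85 to 3.78 FPKM. In the table the position of Hif1a covers 145928 bases, against 46156 in the annotation. The kit marks strand, but the strand setting of the counting is not given, so reads of Hif1a and Gm15283 may not be fully separated. Gm49321, a protein-coding gene on the same strand, overlaps Hif1a by 9878 bases in the annotation and had no row. Strand cannot separate reads of Gm49321 and Hif1a in that overlap.

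Epas1 encodes HIF-2α, known from vessels and glia and for the induction of erythropoietin (ENSMUSG00000024140; chromosome 17, 86753700 to 86833410, plus strand). It was at 47.7, 57.7, 68.8 and 48.6 FPKM in WT 1, 3, 4 and 5, and at 50.4, 57.5, 62.3 and 46.1 in cKO 1, 3, 4 and 5. Number 4 was the highest and number 3 the next in both groups, and the groups overlapped. The difference was −0.04 (SE 0.14, 95% interval −0.35 to 0.27; limma adjusted p = 0.930). With the block the SE fell to 0.06 and the interval was −0.18 to 0.11 (limma adjusted p = 0.748). Its sign turned without WT 4 (0.07) and without cKO 5 (0.04).

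**Figure D4:**
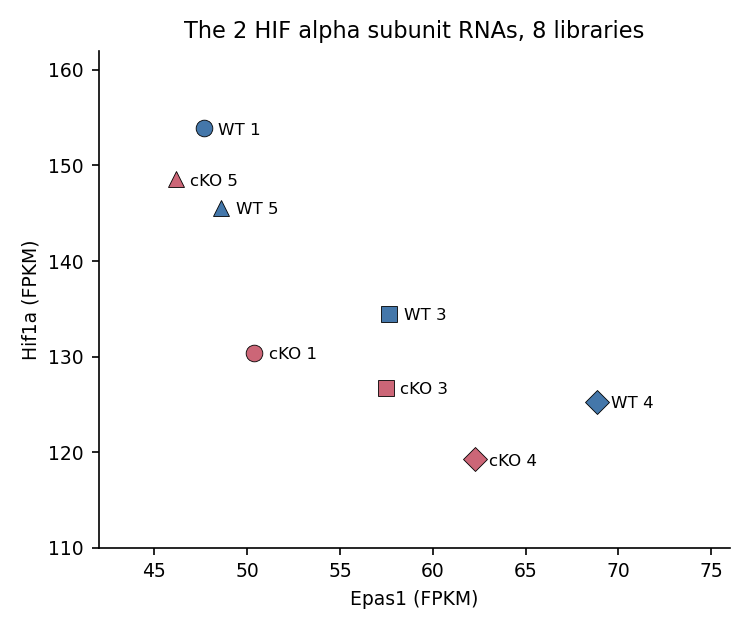
Level of Hif1a (vertical axis, FPKM) against that of Epas1 (horizontal axis, FPKM) in the 4 WT (blue) and 4 cKO (red) libraries; neither axis starts at 0, and symbols of 1 shape share a library number. WT 4 and cKO 4, at the right with 68.8 and 62.3 FPKM of Epas1, are the lowest in Hif1a, at 125 and 119 FPKM.

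The levels of both α subunits ran opposite to each other over the libraries. Pearson's r of the log2 levels was −0.84 and Spearman's rho −0.88 over the 8 libraries, and r was −0.95 after the mean of each group was removed. These points share the scaling of their library and their number, and the value is the most negative of the 28 pairs of members. Hif1a was 1.82 times the level of Epas1 in WT 4 and 1.92 times in cKO 4, against 3.23 times in WT 1 and 3.22 times in cKO 5. By group the ratio was 2.59 ± 0.641 for WT and 2.48 ± 0.563 for cKO (SD, n = 4). Epas1 also ran with the summed endothelial markers (r = 0.91) and against the summed rod markers (r = −0.88). Of 15 endothelial markers 4 had a row (Kdr, Flt1, Esam and Egfl7), with sums of 185 to 269 FPKM in WT and 169 to 227 in cKO. The remaining 11, Pecam1 and Cdh5 among them, had no row under these symbols. Whether other cells set the Epas1 and Hif1a levels was not tested.

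Arnt encodes the constitutive partner that both α subunits need to bind DNA (ENSMUSG00000015522; chromosome 3, 95434388 to 95497240, plus strand). It was at 17.1, 20.7, 14.2 and 13.7 FPKM in WT 1, 3, 4 and 5, and at 14.8, 16.8, 13.2 and 13.8 in cKO 1, 3, 4 and 5. Number 3 was the highest in each group, and the groups overlapped. The difference was −0.15 (SE 0.14, 95% interval −0.46 to 0.16; limma adjusted p = 0.682, and 0.259 with the block), and it shrank to −0.03 without WT 3. It was −0.22 without WT 5 and −0.10 without pair 3 in the fit with the block. Summed, the α subunits were at 12.2 ± 2.20 times the level of Arnt in WT and 12.7 ± 1.45 times in cKO. Arnt2, a neuronal paralogue of Arnt named here after its values were seen, had 10.6 ± 1.93 FPKM for WT and 9.81 ± 0.628 FPKM for cKO (SD, n = 4; limma adjusted p = 0.563 with the block).

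The genes that work with the members were described from lists, and in none of the 6 did a gene pass in limma without the block. Calls and p-values of list genes are therefore from the fit with the block, called the paired fit here, in which 10.6% of all genes passed. Both the scalings and the fits without 1 pair were added for these lists after the data were seen. In the ubiquitin list, which holds the partners of Vhl, all 16 genes had a row, with a median difference of 0.12 against 0.0036 over all genes. In the paired fit 0 of them rose and 1 fell (6.25%), while 15 did not pass. Usp33, a deubiquitinase, fell from 59.7 ± 12.6 to 47.7 ± 6.74 FPKM (limma adjusted p = 0.0271). That call was lost without any 1 of the 4 pairs (limma adjusted p = 0.0504 to 0.104). Elongin C (Eloc) and elongin B (Elob), which bind Vhl directly, differed by 0.24 and 0.25 and were higher in all 4 pairs, but did not pass (limma adjusted p = 0.0639 and 0.0714 with the block).

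Among 17 measured regulators of the hydroxylases and of HIF-α stability the median was 0.02, but −0.01 with TPM and −0.02 with quantile scaling. Over all genes the median was −0.028 with TPM and 0.027 with quantile scaling. In the paired fit 0 rose and 2 fell (11.8%), while 15 did not pass. Wsb1, a ubiquitin ligase subunit reported to target Vhl, fell from 41.3 ± 9.20 to 24.04 ± 11.1 FPKM (difference −0.84, limma adjusted p = 0.00783), and passed also without each pair (0.00475 to 0.0478). Wtip, an LIM protein of the family that joins PHD and VHL proteins, fell from 8.77 ± 2.09 to 6.02 ± 0.798 (−0.49, limma adjusted p = 0.0302), which was lost without any 1 pair (0.0538 to 0.118) and with quantile scaling (0.0509). Ptges3, the p23 cochaperone of Hsp90, differed by 0.21 and Hsp90aa1 by 0.18 (limma adjusted p = 0.0683 and 0.144 with the block).

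Of 24 measured dioxygenases, other enzymes that use oxygen as a substrate, the paired fit called 1 higher and 3 lower (16.7%), and 20 did not pass. The list median was −0.04. Ado, the cysteamine dioxygenase that senses oxygen at N-terminal cysteines, rose from 11.8 ± 1.495 to 14.5 ± 1.27 FPKM (0.29, limma adjusted p = 0.0461), which was lost without any 1 pair (0.0722 to 0.157) and with TPM scaling (0.0734). The histone demethylases Kdm5a (−0.26, limma adjusted p = 0.0436) and Kdm6a (−0.50, 0.0431) and the DNA demethylase Tet2 (−0.61, 0.00719) fell. Tet2 passed also without each pair (0.0163 to 0.0387). Kdm6a passed without pair 3 only, Kdm5a in none of these fits, and both missed with quantile scaling (0.0548 and 0.0512). Of these 4 genes only Kdm5a had no overlap between the groups, at 32.2 to 37.7 FPKM in WT and 26.2 to 30.5 in cKO.

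All 11 measured bHLH-PAS factors and p160 coactivators, relatives of the HIF subunits and of Arnt, were lower in cKO on average, with a median of −0.19. Of them 2 fell with the block (18.2%), 0 rose and 9 did not pass. Npas3, a neuronal factor of the family, fell from 18.2 ± 8.45 to 9.70 ± 1.82 FPKM (limma adjusted p = 0.0247) and the clock gene Per3 from 19.3 ± 5.21 to 15.06 ± 2.73 (limma adjusted p = 0.0379). The Npas3 call was lost without pair 1 or 5 (0.0979 and 0.0531), and that of Per3 without pair 1, 3 or 4 (0.0972 to 0.14) and with quantile scaling (0.0599). Ncoa2 and Per2 differed by −0.25 and −0.31 without passing. Hif3a, the third α subunit, had no row under that symbol. Among 14 coactivators and competitors at the CH1 domain, the median was −0.07, and the paired fit called 1 higher and 1 lower (14.3%). With quantile scaling it called 0. Crebbp, the coactivator CBP, fell from 17.0 ± 3.02 to 12.8 ± 2.67 FPKM (limma adjusted p = 0.0355), and Cited2, which competes with HIF for it, rose from 76.1 ± 13.6 to 92.5 ± 16.9 (limma adjusted p = 0.0423). Cited2 was lost without any 1 pair (0.0681 to 0.154) and with TPM or quantile scaling (0.0621 and 0.0805), and Crebbp without pair 1, 4 or 5 (0.077 to 0.141) and with quantile scaling (0.0528). Med1 and Pkm, the next by p, differed by −0.19 and 0.16 and did not pass.

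**Figure D5:**
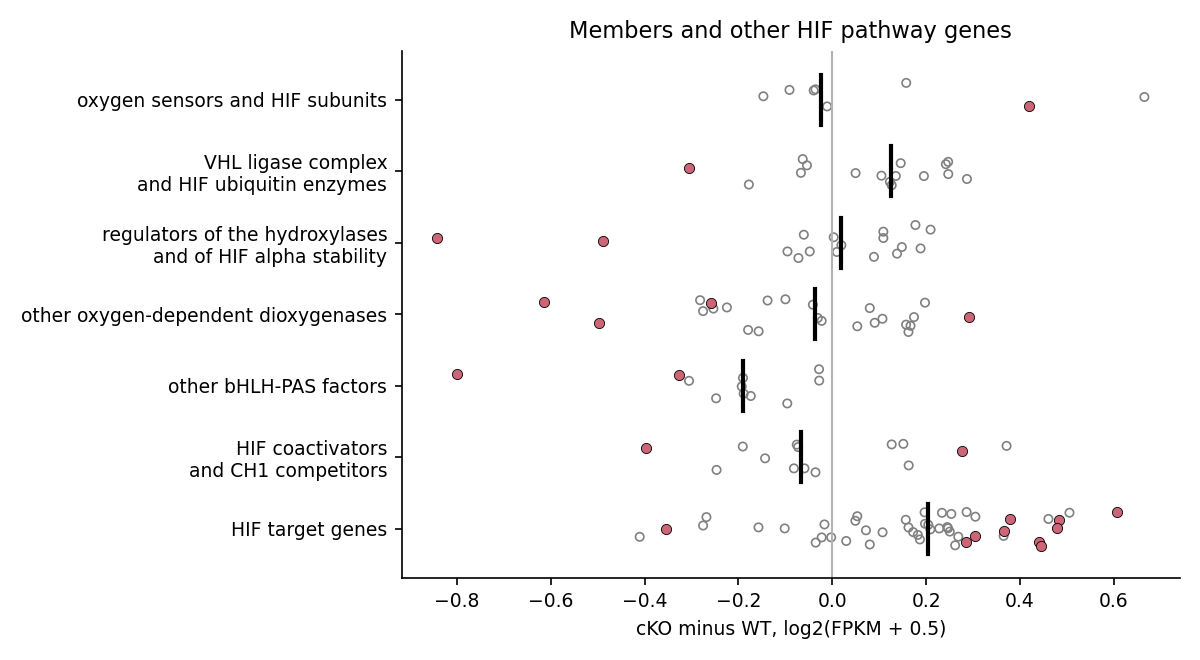
Difference of each gene, cKO minus WT in log2(FPKM + 0.5) (horizontal axis), for the 8 members and 6 lists of other HIF pathway genes; filled points passed in limma with the block and black bars are list medians, with vertical scatter within a list only for display. Of the HIF targets 9 filled points lie above 0 and 1 below, and the list median is 0.20.

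The HIF target list held 47 measured genes, without Egln1 and Egln3, and 37 of them were higher in cKO on average. The list median was 0.20 against 0.0036 over all genes, or 0.12 against 0.027 with quantile scaling. The paired fit called 9 higher and 1 lower, which is 21.3% of the list where 10.6% of all genes passed. Without pair 1, 3, 4 or 5 the calls fell to 2, 2, 7 and 3 higher and 0, 0, 0 and 1 lower. With TPM scaling 6 and with quantile scaling 7 were called higher, and 1 lower in both. Hk2, the hexokinase that opens glycolysis, rose from 17.8 ± 1.94 to 27.4 ± 2.90 FPKM (0.61, limma adjusted p = 0.0141), beside Pgam1 (0.38, 0.0146) and the lactate exporter Slc16a3 (0.44, 0.0171). Tfrc, the transferrin receptor, fell from 37.3 ± 1.22 to 29.2 ± 3.40 (−0.35, limma adjusted p = 0.0209). In each of these 4 genes the groups did not overlap, but the 4 were picked from the list for the smallest p in the paired fit. Over all genes, 2.06% had all cKO values above all WT values. Hk2 passed also without each pair (0.0214 to 0.0468). Pgam1 missed without pair 1 or 3 (0.0616 and 0.0585), Slc16a3 without pair 1 (0.0692) and Tfrc without pair 1, 3 or 4 (0.0704 to 0.0844). The difference of Egln1, 0.42, lay between those of Pgam1 and Slc16a3. The list shares 5 genes with the dioxygenases (Kdm3a, Kdm4b, P4ha1, P4ha2 and Plod2). In the other 5 lists, leaving out 1 pair left at most 2 calls each: 0 in the ubiquitin list, 1 among the regulators, 1 or 2 among the dioxygenases, 0 or 1 among the bHLH-PAS factors and 0 or 1 among the coactivators.

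For each member the genes whose log2 level most resembled its own over the 8 libraries were found by Pearson's r among the 12331 other genes. With 8 points and so many genes high values are common, and between 3 genes (for Egln2) and 527 (for Arnt) exceeded 0.9. Egln1 was most like Smim15 (0.99), Rap2a (0.98) and Rragc (0.98). Egln3 was most like Pgf (0.99), the gene of placental growth factor, followed by Endod1 and Lypla2 (both 0.97). Vhl was most like Rnf7 (0.97), a RING subunit of cullin ligases that is also on the ubiquitin list, then Pip4p2 (0.97) and Snx3 (0.96). Hif1a was most like Ears2 (0.96), Prkaa2 (0.96) and Camk4 (0.95), and Epas1 like Ltbp3 (0.99), Itih5 (0.98) and Mertk (0.97). Hif1an was closest to Usp29 (0.99), Tbc1d30 (0.98) and Ubxn7 (0.98), Arnt to Zmym3, Nup155 and Noc3l (each 0.99), and Egln2 to Top1mt (0.94), Acd (0.94) and Trpt1 (0.92). These genes share the scaling and the numbers of the libraries with the members.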

How the data were processed

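RNA-seq of ribosome-bound RNA was available for 8 libraries, 4 WT and 4 cKO, grouped by their titles. The authors deposited 1 table of FPKM. STAR and edgeR are named as tools, and GRCm38 and mm10 as builds, in the submitters' processing notes, with no role or version. The counting tool, annotation, strand setting and gene filter are not given in the sources used here. Every gene in the table had a mean above 2 FPKM, and fragments per library are unknown, so precision rests on the spread between libraries. Coordinates come from the GRCm38 annotation of GENCODE (mouse release 21), which held 12327 of the 12339 gene IDs.

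Values were taken as log2(FPKM + 0.5), which understates the change of low genes, without further scaling. Differences between cKO and WT were tested in R 4.3.3 using limma 3.58.1 (eBayes with a trend, two-sided, Benjamini-Hochberg over all genes, threshold 0.05), with 6 residual degrees of freedom. A second fit had the library number as a block, with 3 residual degrees of freedom. Both groups carry the same numbers. After removal of group means, the correlation across genes was 0.261 to 0.591 between libraries of equal number and −0.479 to 0.211 between others. By the rule used (every pair over 0.1) this paired them. Of the others, WT 5 with cKO 4 (0.211) and WT 1 with cKO 3 (0.180) were also over 0.1. Removing group means makes the covariances of a library with those of the other group sum to 0. High values in the pairs thus push the other values down. The scripts were tested on simulated data.

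The members and lists were chosen with earlier results of these data known. Named were all members, Nfe2l2, Keap1, up to 4 genes of each list with the smallest p in the block fit, and the 3 genes most like each member, leaving out clone names. Other settings were pseudocounts of 0.1 and 1, minimum means of 2 and 5 FPKM, 3 scalings, the block with and without each pair, library weights, eBayes without trend or robust, and each library left out. Promoter windows came from RefSeq on GRCm38.p6.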

Additional observations from a re-analysis of the deposited data

Results flagged for a closer look

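In cKO, Vhl was at 42.5 FPKM in library 3, further below the other 3 cKO libraries than a sample of 4 usually spreads (on the log2 scale its gap to the next library, over the range of the group, exceeded Dixon's 95% critical value for 4 samples). In cKO, Hif1an was at 14.05 FPKM in library 4, low by the same measure. Across the 18 groups tested, chance flags about 1 in 20.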

How the results depend on the processing

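Genes past the threshold numbered 0 in limma without the block and with each library left out, and 1 with library weights. With the replicate block they were 1305, with median-of-ratios, TPM or quantile scaling beside the block 1300, 1337 and 1064, and without pair 1, 3, 4 or 5 402, 606, 524 and 821. Members past the threshold were 0 without the block, 1 (Egln1) with the block under each of these scalings, and 0 to 1 without 1 pair. Egln1 differed by 0.42 with the block, by 0.42, 0.39 and 0.41 with these scalings, and by 0.38 to 0.49 without 1 pair. The block changed no other member's call. With the block the lists had 1 (ubiquitin), 2 (regulators), 4 (dioxygenases), 2 (bHLH-PAS), 2 (coactivators) and 10 (HIF targets) genes past it.

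Values near 0 turned sign. Egln2 was at 0.011 with quantile scaling, with or without the block, at 0.062 with library weights, between −0.069 and 0.072 without 1 library, and between −0.065 and 0.095 with the block without 1 pair. Hif1an ranged from −0.12 to 0.034 and from −0.061 to 0.014, and Epas1 from −0.11 to 0.071 and from −0.074 to 0.00027, in the last 2 kinds of fit. The cause was not tested. Egln1, Egln3, Vhl, Hif1a and Arnt kept their sign in all 26 alternatives. Nfe2l2 was between −0.59 and −0.38 without 1 library, where the exact test cannot go below 0.0571, and −0.51, −0.60, −0.45 and −0.42 with the block without pair 1, 3, 4 or 5 (limma adjusted p = 0.0785, 0.0182, 0.0846 and 0.0634), so that 3 of these 4 fits lost the blocked call. The minimum mean of 2 FPKM removed no gene.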
